A study of Mus musculus with 6 samples.

Results

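The 56 genes described here drive or mark cell division, from the D-type cyclins of G1 through the replication machinery of S phase to the kinases, checkpoint proteins and spindle proteins of mitosis. They were taken by gene symbol from a list of cell cycle genes, all 56 were found, and they are 56 of 54532 gene identifiers in the count table. RNA was sequenced from whole epididymal white adipose tissue, a visceral fat depot of male mice, taken from animals fed a high-fat diet for 16 weeks. The knockout group (3 libraries) was PD-1fl/fl Lyz2-Cre, in which Pdcd1, the gene of the inhibitory receptor PD-1, is floxed and Cre is made from the Lyz2 locus of myeloid cells. The control group (3 libraries) was PD-1fl/fl littermates, so both groups carried the floxed gene and ate the same diet. Lyz2-Cre acts in macrophages, monocytes and neutrophils and leaves Pdcd1 intact in T cells, and strain and age were not given in the sources used here.

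As background, a cell enters the cycle when D-type cyclins with Cdk4 and then cyclin E with Cdk2 release E2F factors, which switch on genes of DNA replication. A later set of genes is switched on for G2 and mitosis by Foxm1 and by the complex of B-Myb and MuvB, which binds CHR elements beside CCAAT boxes in their promoters. Transcripts of the mitotic set are abundant in dividing cells and scarce in resting ones, and Mki67, the gene of the Ki-67 antigen, is a common marker of division. Mature adipocytes seldom divide, whereas macrophages, T cells and progenitor cells of fat can.

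Some facts of the libraries touch all results. Library totals ran from 20108185 to 27225533 counts. Control replicate 2 had a liver profile. The 8 hepatocyte markers summed to 92.4 to 1057 CPM in knockout libraries, against 117, 204100 and 5735 CPM in control replicates 1, 2 and 3. The 8 adipocyte markers summed to 7612 to 18280 CPM in knockout libraries, against 19950, 320 and 13300 CPM in controls. CPM is the count of a gene relative to its library's total, after TMM scaling, which sets libraries to a common level over most genes. Each comparison is therefore given with all 6 libraries and without control replicate 2. Pdcd1 held 19, 19 and 5 counts in knockout libraries, against 13, 0 and 0 counts in controls, too few to check the labels, and which exons the counts cover is not given in the sources used here. Titles carry separate numbers, but no label states 1 animal per library, so p-values measure the spread between these libraries. In whole tissue, fewer cells of a type and less RNA per cell cannot be told apart.

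Most genes of mitosis had higher levels in knockout replicates 1 and 2 than in the 4 other libraries. They were 26 of 29 tested, beside 15.9% of all genes. Knockout replicate 3 lay between these 2 libraries and the controls or among the controls. Of 6 genes of G1, Ccnd1 alone had knockout replicates 1 and 2 above the 4 other libraries. The median log2 fold change, knockout over control, was 1.93 over the 29 tested mitotic genes, 0.85 over 15 genes of replication and nucleotide supply and 0.31 over 6 G1 genes, beside -0.03 over all 15928 genes tested. Without control replicate 2 the medians were 2.16, 1.07 and -0.01, beside -0.04 over all 16729 genes tested. The G1 median depended on the method: with all 6 libraries it was 1.09 by limma-voom and 0.87 and 1.03 by limma on FPKM with pseudocounts of 1 and 0.1. No single gene passed the test: edgeR's quasi-likelihood test with Benjamini-Hochberg adjustment called 0 of 55 tested members at an adjusted p of 0.05, where it called 0% of all genes, and the members' adjusted p ran from 0.560 to 0.972. Without control replicate 2 it again called 0 of 56 members, with 0% of all genes called and adjusted p from 0.540 to 0.951.

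Below the level of adjusted calls, 23 of 55 members had an unadjusted edgeR p under 0.05 with a higher level in knockout, where 4.38% of all genes did, and 0 members had one with a lower level, where 4.27% of all genes did. Without control replicate 2 the counts were 24 and 0 of 56 members, beside 5.46% and 3.5% of all genes. Log2 fold changes were above 0 in 50 of 55 members, beside 48% of all genes, above 1 in 33, beside 11.4%, and below -1 in 2, E2f8 and Cks2, beside 13%. With that control left out they were above 0 in 51 of 56 members, beside 47.1%, above 1 in 36, beside 10.2%, and below -1 in 0, beside 9.52%. DESeq2, run as an alternative, called 6 members higher and 0 lower, beside 1.42% and 1.71% of all genes, namely Ccnb1, Ccnb2, Cdk1, Cdc20, Tpx2 and Top2a. Without control replicate 2 DESeq2 called 15 members higher, beside 2.03% of all genes, and 0 lower, beside 0.621%. The further 9 were Cdt1, Rrm2, Tk1, Ccna2, Plk1, Aurkb, Cenpa, Mki67 and Stmn1. limma-voom called 0 members and 0 genes.

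**Figure D1:**
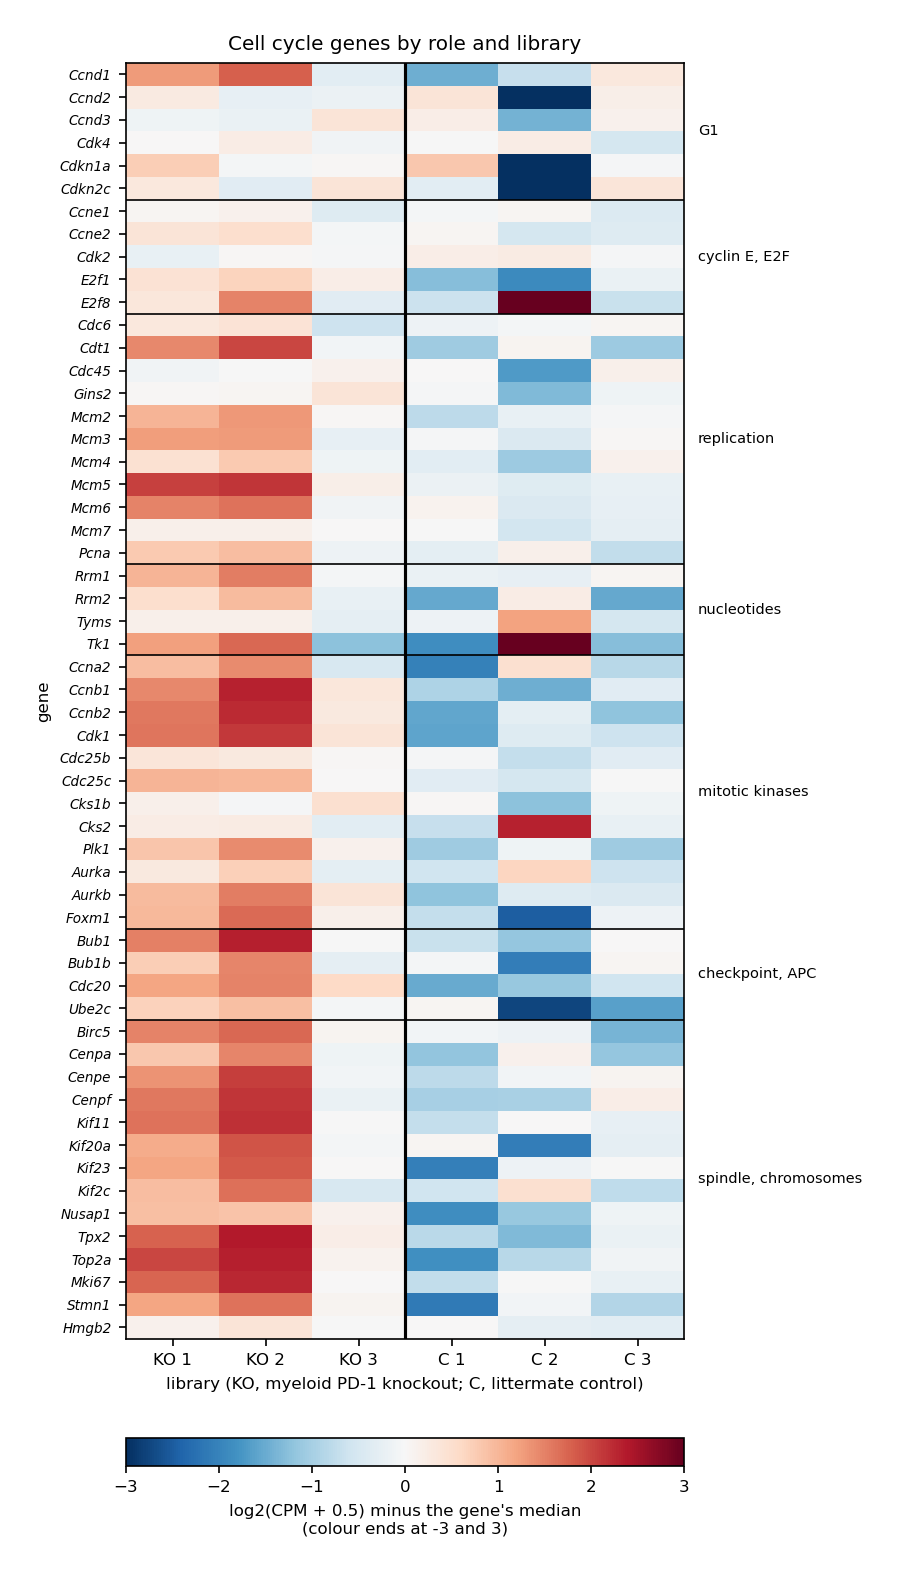
Level of each of the 56 genes (rows, grouped by role) in each library (columns), as log2(CPM + 0.5) minus the gene's median over the 6 libraries, with red above and blue below that median and colour ending at -3 and 3. Most mitotic rows are red in knockout replicates 1 and 2, pale in knockout replicate 3 and pale or blue in the controls. Cks1b, Cks2 and Hmgb2 are pale in knockout replicates 1 and 2. Most G1 and cyclin E rows are pale apart from control replicate 2.

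The split lay between libraries as much as between groups. Knockout replicates 1 and 2 were both above the 4 other libraries in 41 of 55 tested members, where 15.9% of all genes were. Knockout replicate 2 was the highest library in 40 of the 55, beside 2790 of all 15928 genes. Every knockout library lay above every control library in 20 of 55 members, where 9.54% of all genes did, and below in 0, where 5.61% did. Leaving out control replicate 2, every knockout library lay above both controls in 31 of 56 members, beside 13.4% of all genes. Without knockout replicate 3 the 2 other knockout libraries lay above every control in 42 of 55 members, beside 19% of all genes. Knockout replicate 3 was above control replicate 3, a library with a neighbouring title number, in 43 of 55 members, beside 49.4% of all genes, and the median ratio between the pair was 1.23. Over the tested mitotic genes alone, knockout replicate 3 was above both control replicates 1 and 3 in 21 of 29, beside 4590 of all 15928 genes. Its median ratios over these 29 genes were 2.17 to control replicate 1 and 1.33 to control replicate 3. Over all 55 tested members, knockout replicate 1 held by median 1.97 times and knockout replicate 2 held 2.71 times the level of knockout replicate 3. The fold changes of the members thus rest mostly on knockout replicates 1 and 2.

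Promoter letters of the members also differed by role. The windows are those RefSeq gives for GRCm38.p6, 250 bases before to 50 bases after each start, and 44 of 56 members matched. Letters were searched on both strands. For E2F sites they were TTTCCCGC, the variant TTTCGCGC, the variant TTTGCCGC and the variant TTTGGCGC, which can overlap each other on opposite strands. For the CHR they were TTTGAA with the variant TTCGAA, and for the CCAAT box the letters of its name. E2F letters were in 6 of 9 replication genes (66.7%) and 1 of 23 mitotic genes (4.35%), beside 2.61% of all 27025 genes of the table. CHR letters were in 18 of 23 mitotic genes (78.3%), 3 of 9 replication genes (33.3%) and 0 of 4 G1 genes, beside 21.7% of all genes. CHR and CCAAT letters stood together in 17 of 23 mitotic genes (73.9%) and 3 of 9 replication genes (33.3%), beside 8.61% of all genes. CCAAT letters, with or without CHR letters, were in 20 of 23 mitotic genes (87.0%) and 7 of 9 replication genes (77.8%), beside 41.1% of all genes. These are matches of letters and not measured binding, and none of the 4 matched nucleotide supply genes held E2F letters.

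The windows below are 5 of the mitotic genes with the highest fold changes or roles at the centre of mitosis and 3 of replication genes, printed to show both arrangements, with the searched letters in capitals on the gene's own strand. Not every such mitotic gene has the arrangement shown. The window of Ccnb1, a gene with a log2 fold change of 2.79, is not printed and held CCAAT letters but no CHR letters. Cdk1 lies at chr10:69352863-69353162 (minus strand), Ccnb2 at chr9:70421505-70421804 (minus), Cdc20 at chr4:118437294-118437593 (minus), Plk1 at chr7:122159185-122159484 (plus) and Top2a at chr11:99024140-99024439 (minus). Mcm5 lies at chr8:75109259-75109558 (plus), Mcm6 at chr1:128359656-128359955 (minus) and Cdt1 at chr8:122567765-122568064 (plus).
Cdk1: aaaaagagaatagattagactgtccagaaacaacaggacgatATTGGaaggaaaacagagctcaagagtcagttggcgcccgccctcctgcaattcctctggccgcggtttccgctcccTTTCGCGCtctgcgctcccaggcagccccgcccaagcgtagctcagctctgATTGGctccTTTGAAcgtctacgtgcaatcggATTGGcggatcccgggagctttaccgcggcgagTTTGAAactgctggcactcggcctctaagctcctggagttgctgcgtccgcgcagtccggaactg
Ccnb2: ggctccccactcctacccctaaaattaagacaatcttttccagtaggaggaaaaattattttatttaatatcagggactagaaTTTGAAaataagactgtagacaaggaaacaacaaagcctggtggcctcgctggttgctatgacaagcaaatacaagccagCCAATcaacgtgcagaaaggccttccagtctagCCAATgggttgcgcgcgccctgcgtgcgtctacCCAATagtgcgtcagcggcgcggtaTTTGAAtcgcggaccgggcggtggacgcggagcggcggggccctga
Cdc20: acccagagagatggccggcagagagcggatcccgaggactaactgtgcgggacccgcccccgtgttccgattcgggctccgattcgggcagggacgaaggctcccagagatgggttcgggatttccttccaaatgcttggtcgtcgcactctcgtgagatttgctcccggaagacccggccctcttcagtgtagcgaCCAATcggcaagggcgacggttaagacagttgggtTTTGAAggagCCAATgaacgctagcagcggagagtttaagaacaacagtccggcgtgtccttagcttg
Plk1: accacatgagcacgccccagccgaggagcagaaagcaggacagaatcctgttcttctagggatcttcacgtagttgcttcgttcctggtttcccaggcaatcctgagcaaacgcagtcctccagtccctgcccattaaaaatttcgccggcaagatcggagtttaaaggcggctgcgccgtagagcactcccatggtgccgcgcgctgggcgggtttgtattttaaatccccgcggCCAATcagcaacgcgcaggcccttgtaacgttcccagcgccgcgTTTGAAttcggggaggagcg
Top2a: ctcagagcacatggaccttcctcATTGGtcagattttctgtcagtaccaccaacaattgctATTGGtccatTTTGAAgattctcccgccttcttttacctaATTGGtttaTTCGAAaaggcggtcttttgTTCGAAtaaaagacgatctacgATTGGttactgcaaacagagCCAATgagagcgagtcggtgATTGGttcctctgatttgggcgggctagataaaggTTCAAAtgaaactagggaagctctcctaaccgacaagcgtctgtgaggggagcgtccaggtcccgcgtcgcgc
Mcm5: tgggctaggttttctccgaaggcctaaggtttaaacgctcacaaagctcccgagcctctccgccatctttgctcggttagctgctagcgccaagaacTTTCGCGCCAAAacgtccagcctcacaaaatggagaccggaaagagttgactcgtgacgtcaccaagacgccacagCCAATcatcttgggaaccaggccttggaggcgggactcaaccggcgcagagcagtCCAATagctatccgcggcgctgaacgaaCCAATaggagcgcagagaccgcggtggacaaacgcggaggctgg
Mcm6: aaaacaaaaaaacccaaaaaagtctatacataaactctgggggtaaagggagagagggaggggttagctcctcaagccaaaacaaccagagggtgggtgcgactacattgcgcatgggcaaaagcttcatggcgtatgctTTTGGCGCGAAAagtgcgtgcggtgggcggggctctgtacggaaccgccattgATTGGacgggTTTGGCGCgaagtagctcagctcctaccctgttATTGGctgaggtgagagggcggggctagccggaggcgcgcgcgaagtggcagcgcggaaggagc
Cdt1: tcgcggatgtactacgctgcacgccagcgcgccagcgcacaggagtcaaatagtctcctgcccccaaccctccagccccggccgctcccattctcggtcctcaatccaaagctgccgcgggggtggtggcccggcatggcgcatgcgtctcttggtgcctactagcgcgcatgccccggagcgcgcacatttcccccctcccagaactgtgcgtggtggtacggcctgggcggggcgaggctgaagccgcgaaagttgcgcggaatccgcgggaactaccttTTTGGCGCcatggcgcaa
In the first 5 windows the capitals are CHR letters and CCAAT letters, read on either strand, and Cdk1 alone among them also has E2F letters, TTTCGCGC. In the windows of Mcm5, Mcm6 and Cdt1 the longer capitals are E2F letters, overlapping on opposite strands in Mcm5 and Mcm6, and no CHR letters stand there. Among these 8 genes, Mcm6 had the lowest log2 fold change, 1.39, and Ccnb2 the highest, 2.92. The arrangements overlapped in fold change, as Cdt1 at 2.10 and Mcm5 at 2.08 were above Plk1 at 1.90.

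**Figure D2:**
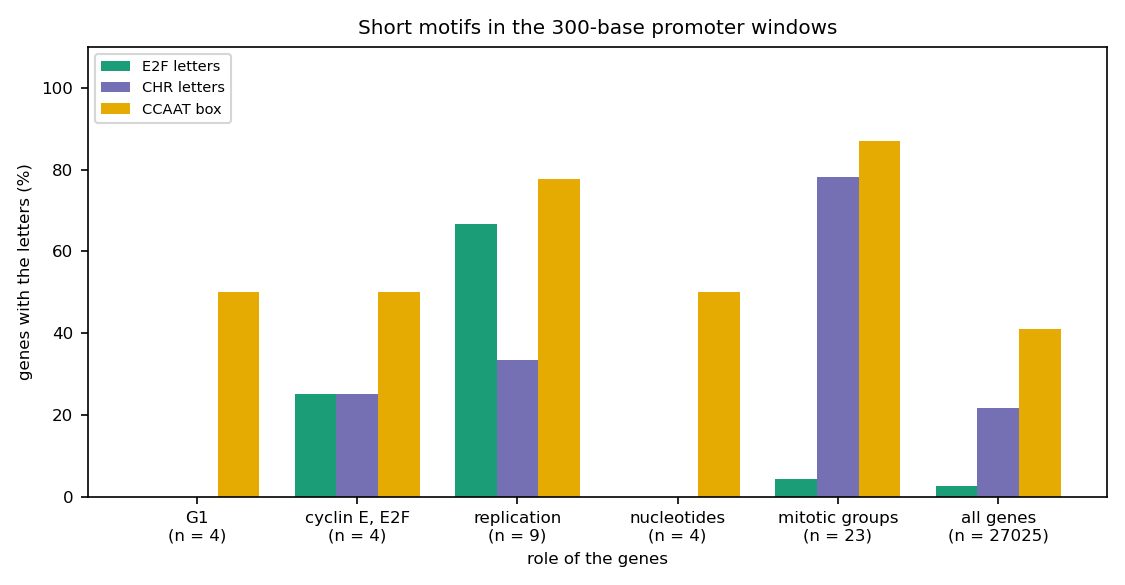
Share of genes (%) whose 300-base promoter window holds E2F, CHR or CCAAT letters, by role of the gene and over all 27025 genes of the table. E2F letters stand out in replication genes at 66.7% and CHR letters in mitotic genes at 78.3%, beside 2.61% and 21.7% of all genes.

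G1 genes were close between the groups apart from Ccnd1. Ccnd1, a D-type cyclin that partners Cdk4 and Cdk6, had 25.1, 36.1 and 7.96 CPM in knockout libraries, against 3.33, 6.08 and 12.8 CPM in controls. Knockout replicates 1 and 2 were the highest, and knockout replicate 3 lay below control replicate 3, so the groups overlapped (log2 fold change 1.64 ± 0.72 SE, adjusted p = 0.560 by edgeR). Ccnd2, a second D-type cyclin, had 202, 140 and 147 CPM in knockout libraries, against 218, 12.4 and 189 CPM in controls, and its log2 fold change was 0.22 ± 0.91 with all libraries and -0.31 ± 0.27 without control replicate 2. Ccnd3 had 88.9, 83.8 and 126 CPM in knockout libraries, against 111, 36.1 and 105.0 CPM in controls. In both of these genes control replicate 2 was the lowest library by a wide margin and the 5 other libraries overlapped.

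Cdk4, the kinase partner of the D-type cyclins, had 52.4, 60.5 and 48.04 CPM in knockout libraries, against 50.7, 60.2 and 35.4 CPM in controls. Cdkn1a, the p21 inhibitor that p53 induces, had 200, 114 and 122 CPM in knockout libraries, against 208, 11.0 and 117 CPM in controls. Cdkn2c, the p18 inhibitor of Cdk4 and Cdk6, had 170, 109 and 179 CPM in knockout libraries, against 110, 14.9 and 177 CPM in controls. These 3 genes overlapped between the groups with and without control replicate 2, with log2 fold changes of 0.14 ± 0.30, 0.38 ± 0.92 and 0.60 ± 0.81 with all libraries and 0.33 ± 0.27, -0.16 ± 0.39 and 0.10 ± 0.33 without it.

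Per length, Cdkn2c and Cdkn1a were among the highest members. In the authors' FPKM, which divides counts by gene length, the median level of Cdkn2c was 56.3 over knockout libraries and 35.6 over controls, that of Pcna 47.9 and 22.0, that of Cdkn1a 29.95 and 29.4, and that of Stmn1 24.6 and 5.73. At the low end were E2f8, with medians of 0.262 FPKM in knockout libraries and 0.0906 FPKM in controls, and Cenpf, with 0.321 FPKM in knockout libraries and 0.0326 FPKM in controls. The inhibitors of G1 kinases thus stood far above the kinetochore gene Cenpf per length in both groups.

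Cyclin E genes and Cdk2 showed no difference beyond their spread. Ccne1, which activates Cdk2 at the start of S phase, had 6.93, 7.33 and 4.93 CPM in knockout libraries, against 6.40, 6.89 and 4.88 CPM in controls. Its relative Ccne2 had 6.34, 6.98 and 4.54 CPM in knockout libraries, against 4.94, 3.13 and 3.48 CPM in controls. Cdk2 ran from 16.0 to 19.1 CPM in knockout libraries, against 18.3 to 22.1 CPM in controls, with a log2 fold change of -0.21 ± 0.25. The groups overlapped in each of the 3 genes, while for Ccne2 only knockout replicate 3 and control replicate 1 crossed.

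E2f1, an activator of replication genes, was the member of this group with the lowest p. It had 20.5, 24.5 and 17.5 CPM in knockout libraries, against 5.88, 3.67 and 13.0 CPM in controls. Every knockout library lay above every control, by a fold of 2.75 (log2 1.46 ± 0.52, adjusted p = 0.560 by edgeR) with all libraries and a log2 fold change of 1.16 ± 0.41 without control replicate 2. E2f8, a repressor of E2F targets that is prominent in liver, had 1.60, 4.17 and 0.815 CPM in knockout libraries, against 0.562, 15.8 and 0.550 CPM in controls. The liver-profile control was far above the rest, and the log2 fold change was -1.34 ± 1.44 with it and 2.00 ± 0.86 without it.

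The 11 replication genes gave a median log2 fold change of 0.85, and 0.96 without control replicate 2. With all libraries 4 of them had an unadjusted edgeR p under 0.05 with a higher level in knockout, Cdt1, Mcm2, Mcm5 and Mcm6, beside 4.38% of all genes. Leaving out control replicate 2, the 4 were Cdt1, Mcm2, Mcm5 and Pcna, beside 5.46%. Mcm5, a subunit of the Mcm2 to Mcm7 helicase, had 19.7, 21.2 and 5.08 CPM in knockout libraries, against 3.82, 3.31 and 3.70 CPM in controls, a fold of 4.24 (log2 2.08 ± 0.59, adjusted p = 0.560 by edgeR). All 3 knockout libraries were above all controls, knockout replicate 3 by the least. Cdt1, which loads the helicase at origins, had 14.0, 21.0 and 4.50 CPM in knockout libraries, against 2.06, 5.19 and 2.02 CPM in controls. Control replicate 2 overlapped knockout replicate 3 there, and the log2 fold change was 2.10 ± 0.71 with it and 2.71 ± 0.71 without it.

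Pcna, the sliding clamp of the replication fork, had 129, 142 and 67.3 CPM in knockout libraries, against 60.9, 82.5 and 44.7 CPM in controls, with a log2 fold change of 0.85 ± 0.41, and 1.11 ± 0.41 without control replicate 2. The groups overlapped only through control replicate 2. The 6 helicase genes were unequal: log2 fold changes were 1.28 ± 0.49 for Mcm2, 1.08 ± 0.48 for Mcm3, 0.79 ± 0.44 for Mcm4, 1.39 ± 0.50 for Mcm6 and 0.38 ± 0.27 for Mcm7, beside the 2.08 of Mcm5. Knockout replicates 1 and 2 were above the 4 other libraries in all 6 helicase genes, beside 15.9% of all genes. The fork and loading factors Cdc6, Cdc45 and Gins2 had small differences of 0.18 ± 0.53, 0.33 ± 0.57 and 0.59 ± 0.46.

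In nucleotide supply, control replicate 2 moved the values of Rrm2, Tyms and Tk1 but not that of Rrm1. Rrm1, the large subunit of ribonucleotide reductase, had 34.3, 49.1 and 15.8 CPM in knockout libraries, against 14.5, 13.9 and 17.5 CPM in controls (log2 1.11 ± 0.44, and 1.07 ± 0.50 without control replicate 2), and knockout replicate 3 overlapped the controls. Rrm2, the small subunit that is made in S phase, had 11.9, 16.6 and 6.99 CPM in knockout libraries, against 2.55, 9.84 and 2.53 CPM in controls. With control replicate 2 the groups of Rrm2 overlapped at a log2 fold change of 1.26 ± 0.69, and without it every knockout library was above both controls at 2.24 ± 0.48 (adjusted p = 0.540 by edgeR, and 0.00171 by DESeq2).

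Tyms, thymidylate synthase, had 8.27, 8.31 and 6.09 CPM in knockout libraries, against 6.63, 17.8 and 4.95 CPM in controls, so that the liver-profile control was the highest library. Tk1, thymidine kinase of the salvage route, is named because its values turned on that library: it had 13.1, 18.6 and 1.94 CPM in knockout libraries, against 1.09, 50.3 and 1.87 CPM in controls. Its log2 fold change was -0.65 ± 1.52 with all libraries and 2.95 ± 1.00 without control replicate 2, and that of Tyms was -0.37 ± 0.56 and 0.40 ± 0.35. Control replicate 2 was the highest library in 5 of 55 members, E2f8, Tyms, Tk1, Cks2 and Cdk2, beside 31.2% of all genes, and the lowest in 23, beside 41.1%.

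**Figure D3:**
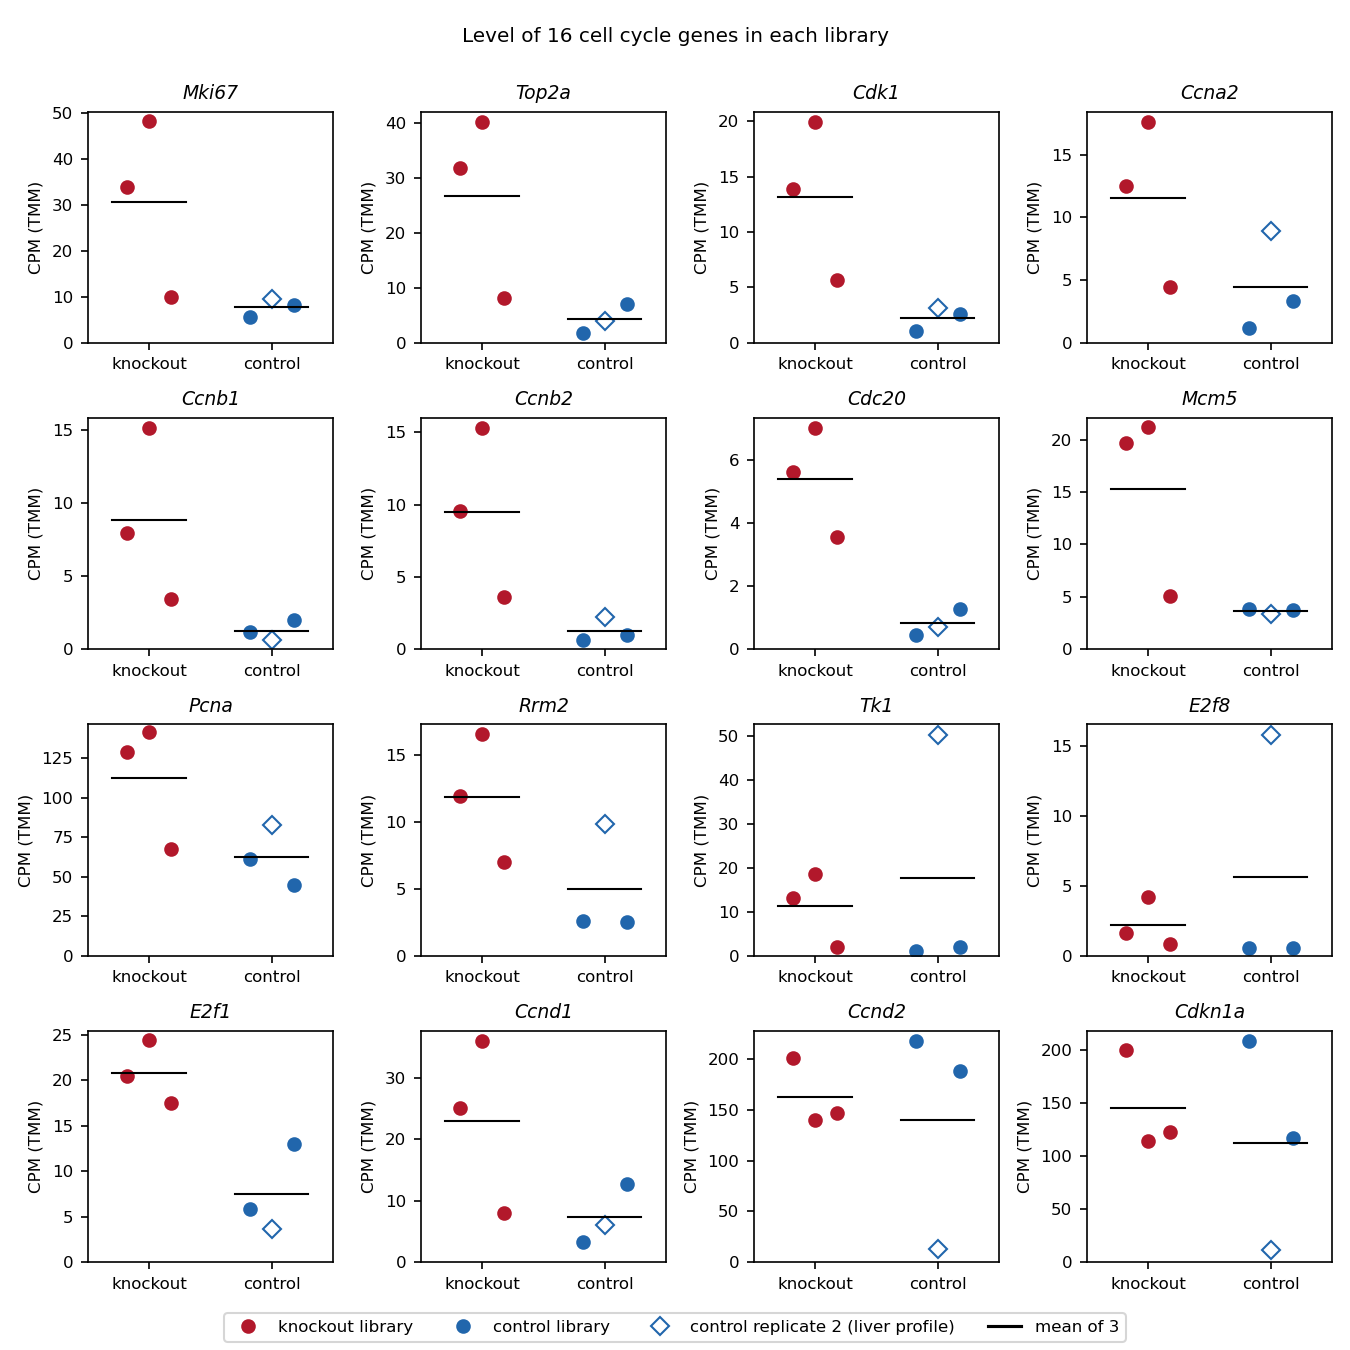
CPM after TMM scaling (vertical axes, from 0) of 16 of the genes in each library, knockout on the left and control on the right of each panel, with the mean of 3 as a line and the liver-profile control as an open diamond. Knockout replicates 1 and 2 stand above the controls in most panels, and the open diamond is far above the other controls for Tk1 (50.3 CPM) and E2f8 (15.8 CPM) and far below them for Ccnd2 (12.4 CPM) and Cdkn1a (11.0 CPM).

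Cdk1 and its cyclins are the engine of mitosis, and the B-type cyclins had the highest fold changes of the 55 members tested with all libraries. Cdk1, the kinase that starts mitosis, had 13.9, 19.96 and 5.67 CPM in knockout libraries, against 1.09, 3.13 and 2.57 CPM in controls, a fold of 5.85 (log2 2.55 ± 0.66). Its partner Ccnb1 had 7.94, 15.1 and 3.45 CPM in knockout libraries, against 1.16, 0.626 and 1.98 CPM in controls, a fold of 6.92 (log2 2.79 ± 0.74). Ccnb2, the second B-type cyclin, had 9.58, 15.3 and 3.61 CPM in knockout libraries, against 0.637, 2.24 and 0.953 CPM in controls, a fold of 7.56 (log2 2.92 ± 0.77). In all 3 genes every knockout library, replicate 3 included, was above every control, and the adjusted p was 0.560 by edgeR and 0.0180, 0.0161 and 0.0141 by DESeq2.

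Leaving out control replicate 2, the log2 fold changes were 2.88 ± 0.71 for Cdk1, 2.52 ± 0.74 for Ccnb1 and 3.595 ± 0.76 for Ccnb2. Ccna2, the cyclin of S phase and G2, had 12.5, 17.6 and 4.42 CPM in knockout libraries, against 1.16, 8.94 and 3.30 CPM in controls. Control replicate 2 overlapped knockout replicate 3 for Ccna2, and the log2 fold change was 1.38 ± 0.86 with that control and 2.39 ± 0.77 without it. An annotated copy bears on Ccnb2: the row Ccnb2-ps held 122 counts over the 6 libraries beside 889 for Ccnb2. The copy held 32, 32 and 26 counts in knockout libraries, beside 293, 435 and 93 for Ccnb2. In controls the copy held 6, 7 and 19 counts, beside 17, 25 and 26 for Ccnb2, so it weighs more there. How reads shared by such copies were counted is not given in the sources used here. Copies of Ccnb1, Pcna and Tyms held 3.16%, 0.430% and 0.432% of the counts of their genes, and those of Ccnd3 and Stmn1 were listed at 0.

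Plk1, a kinase of mitotic entry and spindle assembly, had 4.80, 7.47 and 2.76 CPM in knockout libraries, against 0.936, 2.24 and 0.917 CPM in controls (log2 1.90 ± 0.64). Aurkb, the kinase of the chromosomal passenger complex, had 5.95, 9.08 and 3.84 CPM in knockout libraries, against 0.936, 2.06 and 1.98 CPM in controls (log2 1.93 ± 0.57). The groups did not overlap in either gene. Foxm1, the factor that activates genes of G2 and mitosis, had 4.97, 8.56 and 2.60 CPM in knockout libraries, against 1.20, 0 and 1.98 CPM in controls, also with no overlap. Its log2 fold change was 1.78 ± 0.65 without control replicate 2, a library with 0 Foxm1 counts.

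Of the other members of this group, Cdc25b, a phosphatase that activates Cdk1, differed by 0.61 ± 0.35 and Cks1b, a small subunit that binds these kinases, by 0.57 ± 0.41 on the log2 scale. Aurka, the centrosome kinase, differed by 0.42 ± 0.60, and by 1.08 ± 0.50 without control replicate 2. Cks2, the relative of Cks1b, had 5.43, 5.58 and 3.61 CPM in knockout libraries, against 2.66, 24.95 and 3.89 CPM in controls, and its log2 fold change was -1.10 ± 0.89 with all libraries and 0.59 ± 0.42 without control replicate 2. Cdc25c, a further Cdk1 phosphatase, was the 1 member that the filter on low counts left out of the fit with all libraries, with 30, 27 and 6 counts in knockout libraries, against 2, 0 and 6 counts in controls. Its log2 fold change without control replicate 2 was 2.28 ± 1.04, and knockout replicate 3 and control replicate 3 held equal counts.

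Of the checkpoint and anaphase genes, Cdc20 had the smallest unadjusted p of all members, 0.00369. Cdc20 activates the anaphase-promoting complex, and it had 5.62, 7.02 and 3.57 CPM in knockout libraries, against 0.449, 0.716 and 1.28 CPM in controls, a fold of 6.56 (log2 2.71 ± 0.61, adjusted p = 0.560 by edgeR). The lowest knockout library was well above the highest control, and without control replicate 2 the log2 fold change was 2.66 ± 0.65. Bub1, a kinase of the spindle checkpoint, had 4.94, 9.15 and 1.40 CPM in knockout libraries, against 0.712, 0.358 and 1.43 CPM in controls (log2 2.60 ± 0.88), with knockout replicate 3 just below control replicate 3. Bub1b, its partner in the checkpoint, differed by 1.34 ± 0.83 and Ube2c, the ubiquitin-conjugating enzyme of the anaphase-promoting complex, by 1.64 ± 0.81, and both overlapped between the groups.

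The 14 genes of spindle, kinetochore and chromosomes all had log2 fold changes above 0, beside 48% of all genes, with a median of 1.94, and 13 of them were above 1, beside 11.4%. Top2a, which untangles replicated DNA, had 31.8, 40.1 and 8.19 CPM in knockout libraries, against 1.76, 4.03 and 7.003 CPM in controls, a fold of 6.25 (log2 2.64 ± 0.76). Tpx2, which activates Aurka on the spindle, had 12.9, 19.99 and 3.997 CPM in knockout libraries, against 1.76, 1.07 and 2.93 CPM in controls (log2 2.66 ± 0.73). Mki67, whose protein coats mitotic chromosomes, had 33.8, 48.2 and 9.90 CPM in knockout libraries, against 5.62, 9.57 and 8.25 CPM in controls (log2 1.97 ± 0.61). The groups did not overlap in these 3 genes, but knockout replicate 3 was close to the highest control for Top2a and Mki67.

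Birc5, the survivin subunit of the chromosomal passenger complex, had 10.8, 12.8 and 3.803 CPM in knockout libraries, against 3.30, 3.13 and 1.03 CPM in controls (log2 1.88 ± 0.68). Stmn1, which takes microtubules apart, had 53.1, 71.9 and 24.3 CPM in knockout libraries, against 4.94, 21.9 and 12.3 CPM in controls (log2 1.94 ± 0.65). Every knockout library was above every control in both genes. The kinesins Kif11, Kif20a, Kif23 and Kif2c, motors of the spindle and of cell cleavage, differed by 2.05 ± 0.69, 2.08 ± 1.22, 1.95 ± 0.94 and 1.38 ± 0.83. The centromere and kinetochore genes Cenpa, Cenpe and Cenpf differed by 1.56 ± 0.64, 1.81 ± 0.71 and 2.39 ± 0.91, and the spindle gene Nusap1 by 1.68 ± 0.63. Hmgb2, a chromatin protein, had the smallest estimate of the 14, at 0.37 ± 0.27.

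**Figure D4:**
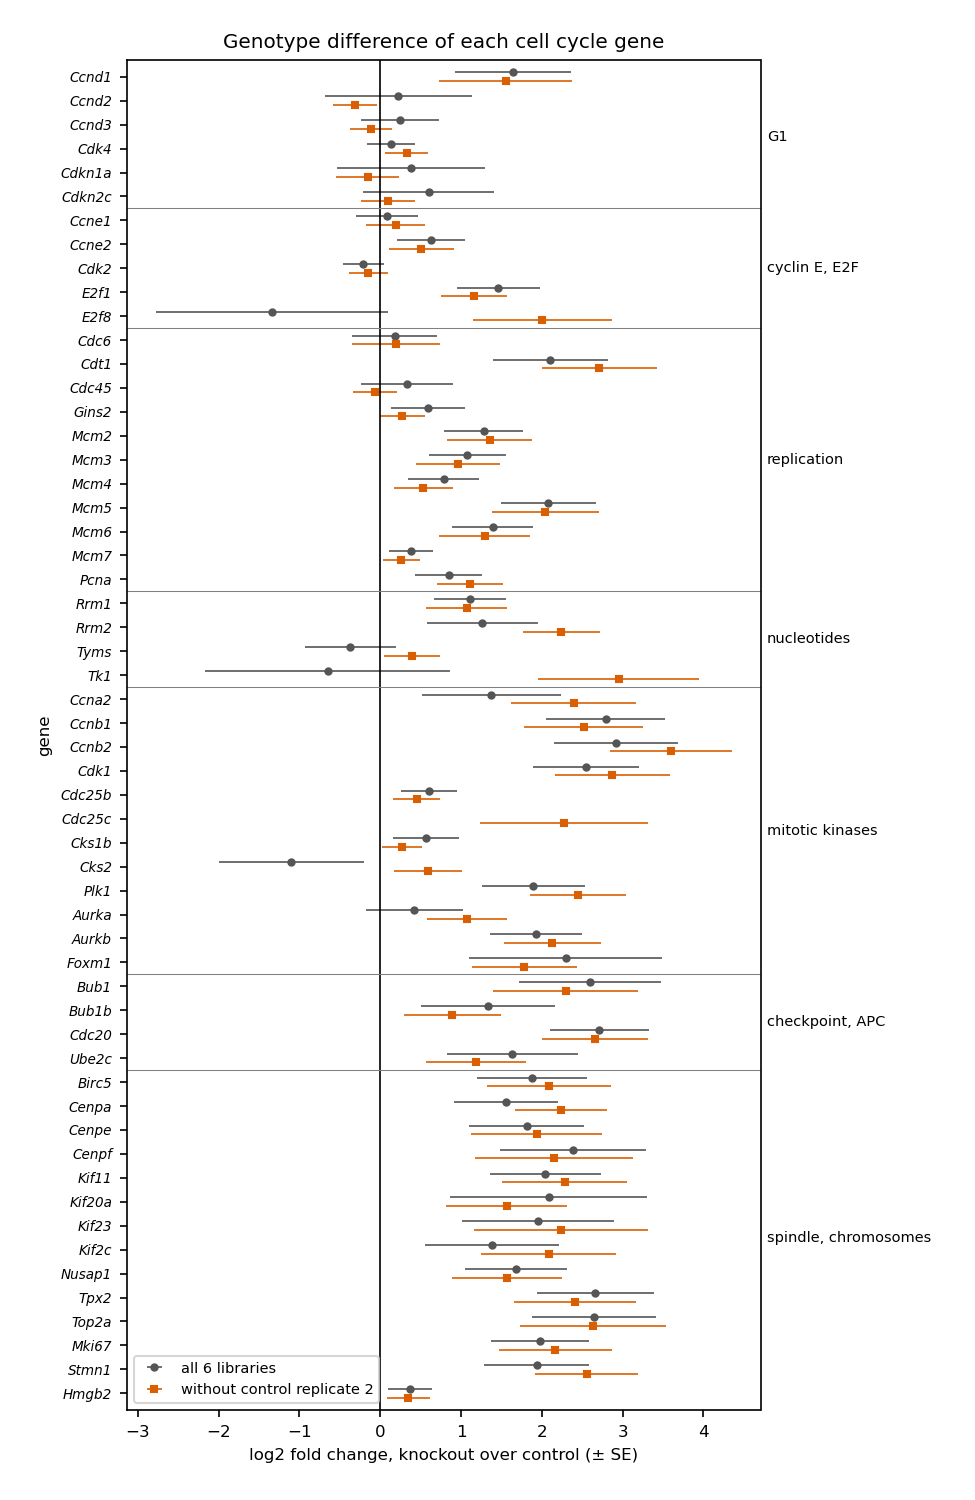
Log2 fold change of each gene, knockout over control, with its standard error as a bar, from the edgeR fit with all 6 libraries (grey circles) and without control replicate 2 (orange squares), grouped by role down the page. Most mitotic genes lie between 1 and 3 in both fits, and 8 genes change side when the liver-profile control is left out, E2f8, Tk1, Tyms and Cks2 to above 0 and Ccnd2, Ccnd3, Cdkn1a and Cdc45 to below 0.

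Ratios of sums give the balance within the set. Summed CPM of the 30 mitotic genes was 362, 491 and 181 in knockout libraries, against 104, 141 and 120 in controls, and that of the 15 replication and nucleotide genes was 378, 437 and 195 in knockout libraries, against 175, 236 and 161 in controls. The ratio of the first sum to the second, which does not depend on library scaling, was 0.958, 1.12 and 0.926 in knockout libraries, against 0.593, 0.598 and 0.746 in controls. The 3 knockout ratios were above the 3 control ratios. The groups overlapped in the ratio of 2 single genes: Mki67 over Pcna was 0.262, 0.340 and 0.147 in knockout libraries, against 0.0922, 0.116 and 0.185 in controls, with knockout replicate 3 below control replicate 3. Genes with high counts such as Pcna, Stmn1 and Mki67 weigh most in these sums.

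**Figure D5:**
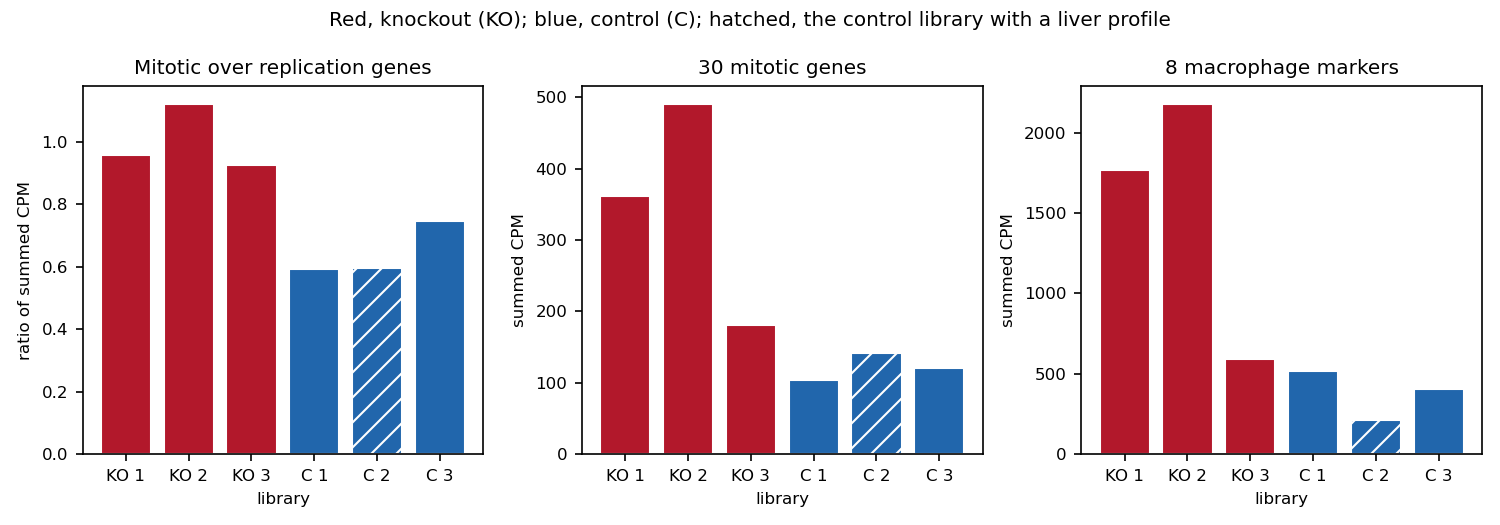
Bars for each library of the summed CPM of 30 mitotic genes over that of 15 replication and nucleotide genes (left), of the summed CPM of the mitotic genes (middle) and of 8 macrophage markers (right), with axes from 0 and the liver-profile control hatched. The ratio separates the groups (0.926 to 1.12 in knockout, 0.593 to 0.746 in control), and the sums of mitotic genes and of macrophage markers are both highest in knockout replicates 1 and 2.

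Markers of cell types moved with the same libraries. All 8 macrophage markers had at least 3 counts in every library and summed to 1766, 2183 and 593 CPM in knockout libraries, against 516, 213 and 408 CPM in controls. In 7 of the 8 every knockout library was above every control, beside 9.54% of all genes. The summed mitotic CPM over the summed macrophage CPM was 0.205, 0.225 and 0.305 in knockout libraries, against 0.201, 0.662 and 0.295 in controls, and these ranges overlapped. Mki67 over Adgre1, the gene of the macrophage antigen F4/80, was 0.126, 0.127 and 0.201 in knockout libraries, against 0.195, 0.793 and 0.246 in controls, which overlapped too. Knockout replicates 1 and 2, the libraries with most mitotic transcript, also held most macrophage transcript. Their mitotic over macrophage ratios were below those of control replicates 2 and 3 and above that of control replicate 1. Their Mki67 over Adgre1 ratios were below those of all 3 controls, but a ratio to a single marker turns on the marker chosen. With all libraries the fold of Mki67, knockout over control, was 3.93. The folds of macrophage markers were 9.34 for Adgre1, 9.18 for Cd68, 17.1 for Trem2 and 3.52 for Csf1r.

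Other cells that can divide varied as well. The 6 T cell markers summed to 25.7, 21.7 and 18.0 CPM in knockout libraries, against 6.78, 5.64 and 7.37 CPM in controls, with Cd8a at 0 in at least 1 library. The 7 progenitor and fibroblast markers summed to 2813, 7053 and 1587 CPM in knockout libraries, against 894, 503 and 1668 CPM in controls. The 6 erythroid markers summed to 582 to 2851 CPM in knockout libraries, against 20530, 3438 and 1461 CPM in controls, and the 6 neutrophil markers to 10.7 to 18.5 CPM in knockout libraries, against 191, 50.6 and 12.3 CPM in controls, so both were highest in control replicate 1. Sums overlapped between the groups for 6 endothelial markers (640.5 to 703 CPM in knockout, 126 to 848 CPM in control) and 5 mesothelial markers (3.20 to 41.0 CPM in knockout, 4.01 to 14.4 CPM in control). They overlapped also for 9 male germ cell markers (19.3 to 62.4 CPM in knockout, 4.29 to 24.4 CPM in control, with 7 at 0 in at least 1 library) and 6 epididymal markers (1.40 to 4.17 CPM in knockout, 2.95 to 38.9 CPM in control, with 5 at 0 in at least 1 library). The part of these cell types in the differences of the cell cycle genes was not tested.

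Of the 66 further cell cycle genes outside the 56, edgeR called 0, 15 had an unadjusted p under 0.05 with a higher level in knockout, beside 4.38% of all genes, and 0 with a lower one, beside 4.27%, and the median log2 fold change was 1.12, or 1.25 without control replicate 2. The 4 of smallest p on the higher side were Dlgap5, Kif22, Kif4 and Ncapg, genes of spindle assembly, chromosome movement and chromosome condensation. Dlgap5 had 5.43, 6.91 and 1.90 CPM in knockout libraries, against 0.449, 1.07 and 0.697 CPM in controls (log2 2.70 ± 0.70), and Kif22, Kif4 and Ncapg differed by 1.75 ± 0.49, 2.67 ± 0.75 and 2.46 ± 0.74, with no overlap between the groups in any of the 4. On the lower side the genes of smallest p included Mcm10, Pttg1 and Spc24, with unadjusted edgeR p of 0.0645, 0.170 and 0.205. In each of these the liver-profile control was the highest library. For Pttg1 knockout replicates 1 and 2 were also below the 4 other libraries. Its log2 fold change was -0.80 ± 0.52 with control replicate 2 and -0.34 ± 0.45 without it, and that of Spc24 was -1.80 ± 1.28 and 1.23 ± 0.49. Mcm10, a replication factor, had 2.88, 7.02 and 1.63 CPM in knockout libraries, against 1.27, 185 and 5.94 CPM in controls, and its log2 fold change was -4.05 ± 1.81 with control replicate 2 and 0.13 ± 0.88 without it.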

How the data were processed

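RNA was sequenced from epididymal white adipose tissue in 6 libraries, 3 per group. Raw whole-number counts per gene were deposited by the authors. The submitters' processing notes name the tools fastp, HISAT2 (2.0.5), featureCounts (1.5.0-p3) and StringTie (1.3.3b) and the build mm10, and no source used here gives the strand setting or annotation. The authors also deposited FPKM, counts divided by gene length and a library scale of their own, used here for levels per length and for alternatives.

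The 56 genes, their roles, the 66 further genes, the marker lists and the genes named were chosen with earlier results of these data known. Per-library values are given for genes chosen by name and for the 2 of smallest p per role; Tk1, Cks2, Cdc25c and the others outside that rule were named after their values were seen. A marker list and a further cell cycle gene are not reported here. Counts were tested over all genes with edgeR 4.0.16 (R 4.3.3): quasi-likelihood, robust, TMM, filterByExpr by group, Benjamini-Hochberg at 0.05, with no covariate. Standard errors are the log2 fold change over the root of F. TMM factors were 1.20, 1.25 and 1.07 in knockout libraries, against 0.982, 0.559 and 1.13 in controls. The fit was tested on simulated counts with known changes. These were modelled on the libraries without control replicate 2, so the fit with all libraries was not tested this way. Replicates differed by more than sampling noise (chi-square per degree of freedom 56.8 to 1112), so each is 1 sample. Alternatives were DESeq2 1.42.0, limma 3.58.1 (voom, or log2 of FPKM plus 1 or 0.1), DESeq2 size factors, total counts, no filter, a term for the title number and libraries left out. The smallest two-sided p of an exact permutation test is 0.1 at this size. A count under 3 was taken as at the floor, which is 0.110 to 0.149 CPM before TMM and covers counting error only. Promoter windows are from RefSeq on GRCm38.p6, the assembly of mm10.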

Additional observations from a re-analysis of the deposited data

How the results depend on the processing

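No paired analysis was possible because the labels give no replicate numbers. A term that set knockout replicate 3 and control replicate 3 apart by title number, which pairs no samples by label, called 0 members. Of 935 log2 fold changes of members under 17 alternatives, 871 kept their direction and side of the threshold, 20 kept their direction and passed it, all under DESeq2, and 44, in 12 members, changed sign. The causes were not tested unless a value below shows one. edgeR, limma-voom and limma on FPKM called 0 members and 0 genes under each setting. DESeq2 called 241 genes higher and 289 lower with 6 members, and 359 and 110 with 15 members without the liver-profile control. Members with every knockout above every control numbered 20 to 42 as single libraries were left out, with 42 without knockout replicate 3, and 37 without controls 2 and 3, where fewer controls remain. Total-count scaling moved the median of all genes by 0.374 on the log2 scale.

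The G1 median, 0.31 by edgeR, was 1.09 with limma-voom, 0.87 with log2(FPKM + 1) and 1.03 with log2(FPKM + 0.1). With log2(FPKM + 1), which compresses low genes, median log2 fold changes were 0.75 over all members, 0.82 for mitotic kinases, 1.05 for checkpoint genes and 0.79 for spindle genes, and without controls 2 and 3 the mitotic kinases gave 2.595. Cyclin E and E2F genes gave 0.54 with total counts, 0.54 with limma-voom, 0.51 with DESeq2 without the liver-profile control and 0.42 with the title number term without it, and -0.05 to 0.51 as single libraries were left out. Nucleotide supply gave 1.72 without controls 2 and 3, and 1.65 by DESeq2 and 1.42 with the title number term without control 2, and 0.13 to 1.66 as single libraries were left out.

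Sign changes of single genes followed the liver-profile control in most cases. As each library was left out in turn, log2 fold changes ran from -0.31 to 0.70 for Ccnd2, -0.11 to 0.50 for Ccnd3, -0.045 to 0.33 for Cdk4, -0.16 to 1.19 for Cdkn1a, -0.052 to 0.24 for Ccne1, -2.23 to 2.00 for E2f8, -0.023 to 0.49 for Cdc6, -0.067 to 0.65 for Cdc45, -0.68 to 0.40 for Tyms, -1.25 to 2.95 for Tk1 and -1.55 to 0.59 for Cks2. Without controls 2 and 3 the values were -0.40 for Ccnd2, -0.14 for Ccnd3, -0.50 for Cdkn1a, 1.98 for E2f8, 0.20 for Tyms, 3.38 for Tk1 and 0.89 for Cks2. With DESeq2 without control 2 they were -0.31 for Ccnd2, -0.11 for Ccnd3, -0.15 for Cdkn1a, 2.00 for E2f8, -0.066 for Cdc45, 0.40 for Tyms, 2.94 for Tk1, which passed the threshold (adjusted p = 0.0269), and 0.59 for Cks2. With the title number term without control 2 they were -0.35 for Ccnd2, -0.097 for Ccnd3, -0.21 for Cdkn1a, 1.58 for E2f8, -0.027 for Cdc6, -0.044 for Cdc45, 0.32 for Tyms, 2.12 for Tk1 and 0.54 for Cks2. Total counts gave 0.22 for Cdk2, 0.29 for Tyms and 0.40 for Tk1, limma-voom gave 0.54 for E2f8, 0.019 for Tyms and 1.32 for Tk1, and limma on FPKM gave 0.078 for Tk1 with a pseudocount of 1 and 0.55 with 0.1.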
